A study of Homo sapiens with 238 samples.

Results

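The human metallothionein genes MT2A, MT1E, MT1M, MT1A, MT1F, MT1G, MT1H and MT1X were followed across 62 poly(A) RNA-seq libraries of K562, a human erythroleukemia cell line grown in RPMI1640 with fetal bovine serum. These 8 members were taken by symbol from the 62696 genes of the count tables. They lie on the long arm of chromosome 16 (hg38), the arm opposite the α-globin cluster, between 56608584 and 56684196, a span of 75613 bases. MT1G is on the minus strand and the other members are on the plus strand. Metallothioneins are small, cysteine-rich proteins that bind zinc, copper and cadmium. Their genes are switched on when free zinc loads the transcription factor MTF1, which binds metal response elements in their promoters. They are also known to respond to glucocorticoids and to oxidative stress.

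The α series holds the unedited line αWT (8 libraries), 2 clones homozygous for substitutions that remove the G-quadruplex (G4) motif of the α-globin enhancer HS-40 (αMut1, 7 libraries, and αMut2, 4) and 4 clones derived from αMut1 cells in which a different G4 was placed in HS-40 (αRes1 and αRes2, 8 each, αRes3 and αRes4, 4 each). The β series holds the unedited line βWT (4), 2 clones homozygous for substitutions in the G4 motif of the β-globin enhancer HS2 (βMut1 and βMut2, 4 each), and lines with the HS3 enhancer deleted in an unedited (WT-HS3Δ, 4) or the G4-mutant βMut1 background (βMut-HS3Δ, 3). Each αMut, αRes and βMut line grew from a single sorted cell, so clone and edit cannot be told apart, and p-values measure the spread between libraries of a line. Each HS3 deletion genotype is held by a single line, so deletion and line cannot be told apart either. The αRes clones also carry what αMut1 had acquired. All edits lie outside the metallothionein cluster.

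Library totals ran from 4270215 to 48671570 counts, the lowest being αRes2 replicate 3. All 10 erythroid marker genes were detected in every line, at a summed 1860 to 3828 CPM (read counts scaled to library size) per library. The 10 markers of lymphoid, myeloid, stromal, epithelial and liver cells summed to 74.6 to 271 CPM. In αWT, αMut1, αRes1 and αRes2, libraries with replicate numbers 5 to 8 differed from those with numbers 1 to 4 in many genes, and values are therefore given within each set of numbers too. The split at 4 was chosen with earlier results of these data known, so tests between the sets were not fixed beforehand. In 16 libraries (numbers 5 to 8 of αRes1 and αRes2, all of αRes3 and αRes4) pseudoautosomal genes had counts and in the other libraries they had none, so the alignment reference appears to have differed. No αWT or αMut1 library was among the 16. Line and inferred reference thus cannot be told apart where αRes3 or αRes4 is compared with αWT or αMut1. The same holds for αRes1 and αRes2 within numbers 5 to 8. In bulk RNA, fewer cells of a kind and less RNA per cell cannot be told apart.

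Upstream sequence is shown because metal response elements there are the family's known point of control. Whether they bear on the differences between lines was not tested. The RefSeq promoter table (GRCh38.p14) held 3 of the 8 members, MT2A, MT1H and MT1X. The 250 bases before each start are given 5′ to 3′, with matches to the metal response element core, TGCACNC or TGCGCNC on either strand, in capitals. A match on the opposite strand reads as its reverse complement. The windows are chr16:56608334-56608583, chr16:56669564-56669813 and chr16:56682220-56682469, all on the plus strand.
MT2A: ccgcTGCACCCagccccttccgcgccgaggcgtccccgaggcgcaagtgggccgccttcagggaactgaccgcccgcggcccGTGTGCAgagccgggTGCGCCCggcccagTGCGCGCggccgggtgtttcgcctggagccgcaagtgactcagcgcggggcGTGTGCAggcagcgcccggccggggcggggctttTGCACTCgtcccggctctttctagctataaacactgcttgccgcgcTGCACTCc
MT1H: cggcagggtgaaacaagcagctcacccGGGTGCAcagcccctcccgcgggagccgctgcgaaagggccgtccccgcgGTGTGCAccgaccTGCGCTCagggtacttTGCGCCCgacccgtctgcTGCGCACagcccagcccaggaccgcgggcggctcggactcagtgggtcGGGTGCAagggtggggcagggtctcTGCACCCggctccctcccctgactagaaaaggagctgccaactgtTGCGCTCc
MT1X: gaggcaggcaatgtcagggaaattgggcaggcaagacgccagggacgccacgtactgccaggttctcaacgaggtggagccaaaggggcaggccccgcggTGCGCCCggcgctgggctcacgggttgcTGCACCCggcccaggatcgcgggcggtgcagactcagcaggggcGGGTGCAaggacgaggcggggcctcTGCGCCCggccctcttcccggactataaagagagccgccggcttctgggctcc
MT2A held 7 matches, MT1H 8 and MT1X 4. Of 35116 windows of the same length, 24.8% held at least 1 match (9.87% for TGCACNC and 16.8% for TGCGCNC), 0.37% held 4 or more, 0.0313% held 7 or more and 0.0171% held 8 or more. MT1H, with the most matches, was among the least expressed members, as described next. A match is a stretch of letters and no measurement of binding was used here.

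Expression of the family was uneven. Per kilobase of exon, the mean level over the 62 libraries was 24.7 CPM per kb for MT2A, the ubiquitous isoform, and 3.41 for MT1X. It was 1.75 for MT1G, 1.05 for MT1A, 0.809 for MT1E, 0.458 for MT1F, 0.256 for MT1H and 0.00666 for MT1M. MT2A gave 70.4% of all reads on the 8 members and MT1X 18.8%. MT1M had 4 reads in all, with 58 libraries at 0. A count of 0 allows up to 3 counts, or 0.059 to 0.711 CPM depending on the library, as far as counting error goes. MT1H had 291 reads, and 13 libraries were at 0. After the filter on low counts (a mean of 10 reads per library within a series), 6 members were tested in the α series and 3 (MT2A, MT1X and MT1G) in the β series. The members share parts of their sequence. Stretches of 51 bases, the read length used, were taken from each member's transcripts. Between 1.71% (MT1F) and 20.0% (MT1M) of them also occur elsewhere in hg38 or in another gene's transcripts. The share was 19.0% for MT1X, 16.6% for MT1G and 4.07% for MT2A. For MT1X, 14.9% of stretches occur in ENSG00000259827, an overlapping gene model that holds 18.6% of its exon bases. The level of MT1X is uncertain by that part.

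**Figure D1:**
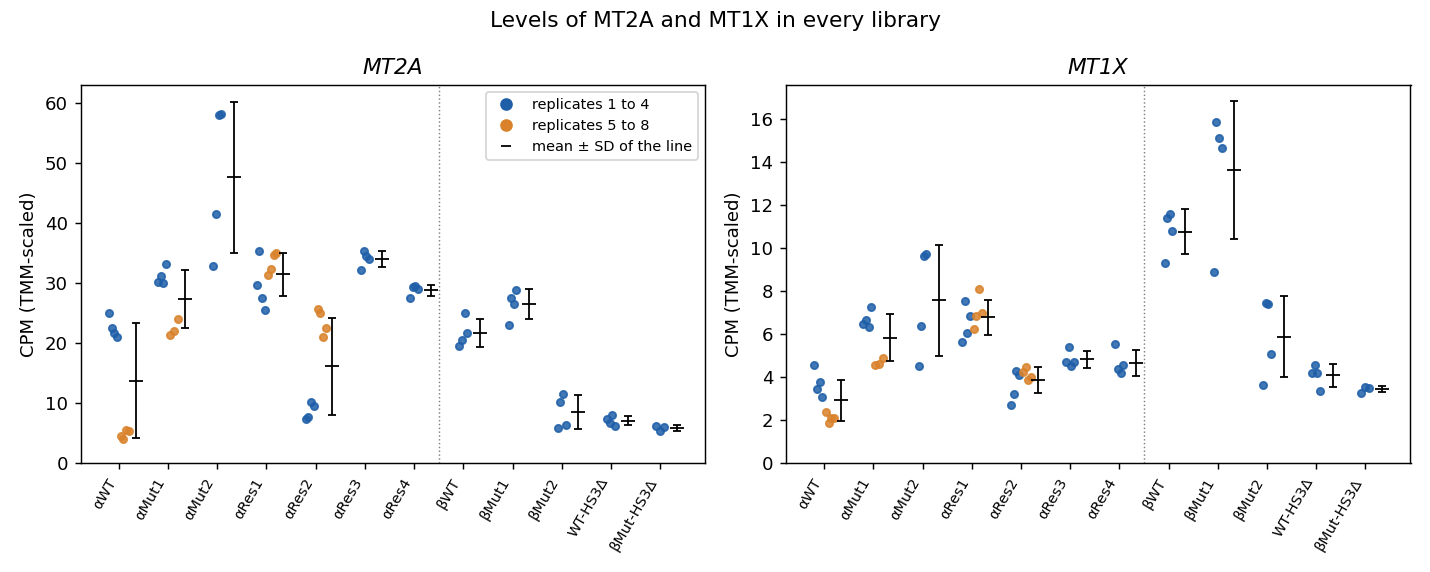
CPM of MT2A and MT1X (vertical axes, TMM-scaled) in each of the 62 libraries, by line. Points are libraries, colored by replicate number, and black bars are the mean ± SD of the line. MT2A in αWT falls into 2 sets, 21.1 to 25.0 CPM for replicates 1 to 4 and 4.09 to 5.56 for replicates 5 to 8, and MT1X is highest in βWT and βMut1.

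MT2A was higher in αMut1, αMut2, αRes1, αRes3 and αRes4 than in αWT, and the size of each difference depended on which αWT libraries were used. In αWT, MT2A stood at 25.0, 22.6, 21.7 and 21.1 CPM in replicates 1 to 4 and at 4.48, 4.09, 5.56 and 5.41 CPM in replicates 5 to 8. The sets did not overlap, and MT2A was lower in the second by 2.24 ± 0.13 on the log2 scale (SE; edgeR adjusted p = 1.38e-17). In αMut1 it stood at 30.2, 31.1, 30.0 and 33.1 CPM in replicates 1 to 4 and at 21.4, 22.0 and 24 in replicates 5 to 7. αMut2, at 32.8, 41.6, 58.0 and 58.2 CPM, had the highest mean of all lines (47.6 ± 12.6 CPM, SD, n = 4). αRes1 ranged from 25.6 to 35.4 CPM with a median of 31.8. αRes2 stood at 7.44, 7.66, 10.2 and 9.55 CPM in replicates 1 to 4, below every αWT library of that set, and at 25.6, 25.0, 21.0 and 22.5 CPM in replicates 5 to 8, above every αWT library of theirs. αRes3 (32.2, 35.3, 34.6 and 34.0 CPM) and αRes4 (27.5, 29.3, 29.5 and 29.0 CPM) varied little and exceeded all 8 αWT libraries. They also differ from αWT in the inferred alignment reference, which cannot be told apart from the line.

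A gene was called where the edgeR adjusted p was under 0.05 and the log2 difference beyond 0.5 in either direction. Over all libraries, MT2A rose in αMut1 by 0.99 ± 0.31 on the log2 scale (adjusted p = 0.00811), in αMut2 by 1.79 ± 0.34 (adjusted p = 1.54e-04), in αRes1 by 1.19 ± 0.30, in αRes3 by 1.31 ± 0.35 and in αRes4 by 1.08 ± 0.35. In αRes2 the difference was 0.23 ± 0.30 (adjusted p = 0.588). With only the compared libraries in the fit, MT2A passed in neither αMut1 nor αRes4. Within replicates 1 to 4 the differences from αWT were 0.47 for αMut1, 1.06 for αMut2, 0.36 for αRes1, -1.41 for αRes2, 0.59 for αRes3 and 0.36 for αRes4, of which those of αMut2, αRes2 and αRes3 passed the thresholds. Within replicates 5 to 8 they were 2.24 for αMut1, 2.82 for αRes1 and 2.31 for αRes2, all past the thresholds. The direction in αRes2 thus turned between the sets. All these comparisons share the αWT libraries.

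MT1X, an MT1 isoform with broad expression, followed a similar order in the α series at a lower level. In αWT it stood at 4.57, 3.45, 3.78 and 3.08 CPM in replicates 1 to 4 and at 2.40, 1.88, 2.10 and 2.09 in replicates 5 to 8. It stood at 4.51, 6.37, 9.64 and 9.72 CPM in αMut2, from 4.58 to 7.28 (median 6.33) in αMut1 and from 5.61 to 8.11 (median 6.84) in αRes1. Every αRes1 library exceeded every αWT library, while the ranges of αMut2 and αWT overlapped. MT1X rose in αMut1 by 0.99 ± 0.16, in αMut2 by 1.37 ± 0.18, in αRes1 by 1.20 ± 0.16, in αRes3 by 0.73 ± 0.19 and in αRes4 by 0.69 ± 0.19 on the log2 scale. The difference in αRes2 was 0.39 ± 0.16 (adjusted p = 0.0551). Within replicates 1 to 4 it was 0.38 for αRes3 and 0.34 for αRes4, neither past the thresholds, and 0.85 for αMut1, 1.01 for αMut2 and 0.77 for αRes1, which were.

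**Figure D2:**
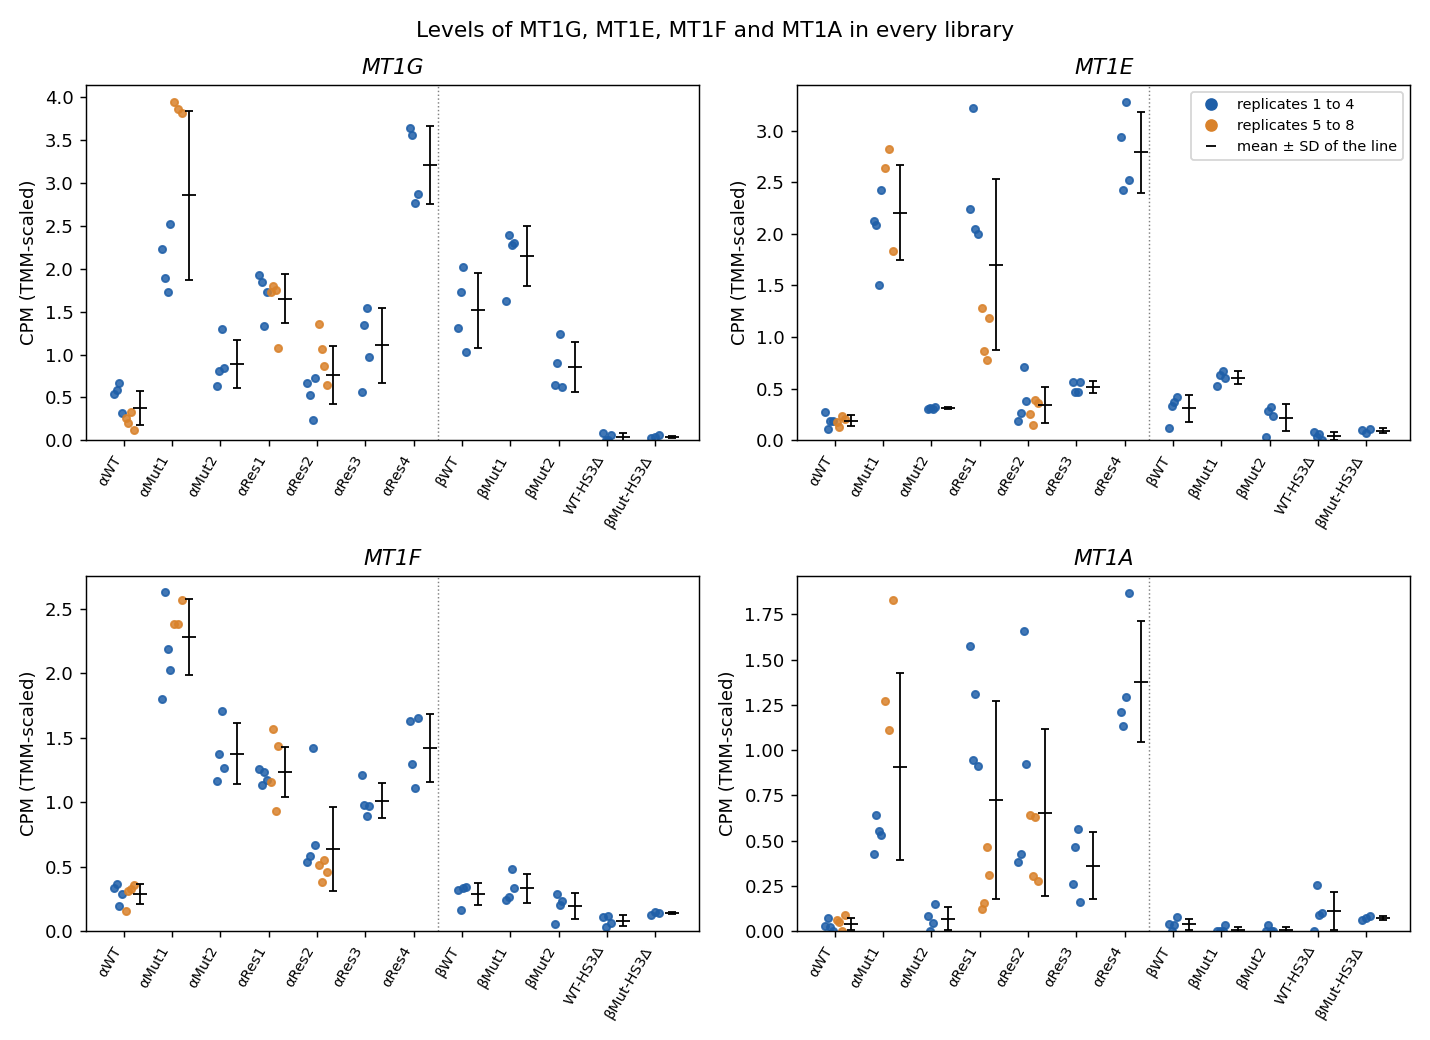
CPM of MT1G, MT1E, MT1F and MT1A (vertical axes, TMM-scaled, each with its own scale) in each library, by line, with points colored by replicate number and black bars for the mean ± SD of the line. MT1E and MT1A are near 0 in αWT and αMut2 and high in αMut1 and αRes4, and MT1G is near 0 in both HS3-deleted lines.

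The less abundant isoforms MT1G, MT1E, MT1F and MT1A stood under 1 CPM in each αWT library. Over all libraries, their fold differences exceeded those of MT2A and MT1X in αMut1 and each αRes clone. In αMut2 only that of MT1F did. MT1G, MT1E and MT1A (1.25, 0.72 and 0.69 on the log2 scale) lay below MT2A and MT1X (1.79 and 1.37) there. MT1E, MT1F and MT1A passed the read filter through lines with more reads than αWT. Their larger fold differences from αWT were thus partly set in advance. The order also depended on the set of replicates. Within replicates 5 to 8, MT2A differed from αWT by more than MT1F did in αRes1 and αRes2, and by less in αMut1. MT1F stood between 0.157 and 0.364 CPM in αWT (median 0.318) and between 1.80 and 2.63 CPM in αMut1 (median 2.39). Its values were 1.16, 1.37, 1.71 and 1.27 CPM in αMut2, 1.21, 0.98, 0.892 and 0.975 in αRes3 and 1.63, 1.30, 1.11 and 1.65 in αRes4. Every library of αMut1, αMut2 and the αRes clones exceeded every αWT library. MT1F rose in all 6 clones, by 2.98 ± 0.17 in αMut1, 2.26 ± 0.19 in αMut2, 2.09 ± 0.17 in αRes1, 1.04 ± 0.19 in αRes2, 1.83 ± 0.21 in αRes3 and 2.31 ± 0.20 in αRes4 (log2; largest adjusted p, in αRes2, 4.92e-05). Within replicates 1 to 4 these values were 2.92, 2.24, 2.04, 1.18, 1.82 and 2.31, and within replicates 5 to 8 they were 3.16 for αMut1, 2.20 for αRes1 and 0.81 for αRes2, each past the thresholds.

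MT1G, the member on the opposite strand, stood between 0.12 and 0.674 CPM in αWT (median 0.322). It stood between 1.73 and 3.95 CPM in αMut1 (median 2.53), between 1.08 and 1.93 in αRes1 (median 1.75) and at 3.64, 3.56, 2.77 and 2.87 in αRes4, all above αWT. In αMut2 (0.637, 0.809, 1.29 and 0.845 CPM), αRes3 (0.561, 1.34, 1.55 and 0.975) and αRes2 (0.237 to 1.35, median 0.698) the ranges overlapped that of αWT. MT1G rose by 2.90 ± 0.27 in αMut1, 1.25 ± 0.31 in αMut2, 2.11 ± 0.26 in αRes1, 1.06 ± 0.29 in αRes2, 1.55 ± 0.32 in αRes3 and 3.08 ± 0.29 in αRes4 (log2). In αRes2 the value was 0.24 within replicates 1 to 4, short of the thresholds, and 2.17 within replicates 5 to 8. In αMut1 it was 1.96 and 4.12 in those sets, and in αRes1 1.63 and 2.83.

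MT1E and MT1A were called in αMut1 and not in αMut2, although both clones are homozygous for substitutions in the HS-40 G4. MT1E stood between 0.109 and 0.272 CPM in αWT (median 0.192), at 0.305, 0.317, 0.307 and 0.323 in αMut2 and between 1.5 and 2.82 in αMut1 (median 2.12). It rose by 3.52 ± 0.24 in αMut1 on the log2 scale, and the difference in αMut2 was 0.72 ± 0.31 (adjusted p = 0.0818). Among clones derived from αMut1, it rose by 3.16 ± 0.24 in αRes1, 1.43 ± 0.32 in αRes3 and 3.87 ± 0.26 in αRes4, and the difference was 0.68 ± 0.30 in αRes2 (adjusted p = 0.0674). MT1A had 12 reads in all 8 αWT libraries together and 11 in the 4 of αMut2, against 180 in the 7 of αMut1, so its fitted fold changes rest on few control reads. It rose by 4.27 ± 0.52 in αMut1, 4.00 ± 0.52 in αRes1, 3.65 ± 0.56 in αRes2, 3.00 ± 0.68 in αRes3 and 4.87 ± 0.56 in αRes4, and the difference was 0.69 ± 0.80 in αMut2, short of the thresholds. The difference between αMut1 and αMut2 was not tested. MT1H, not tested in either series, had 105 reads in αMut1 (0.54 ± 0.217 CPM, SD, n = 7), 38 in αRes4 (0.452 ± 0.0691, n = 4), 27 in αMut2 and 21 in αWT (0.0809 ± 0.0841, n = 8).

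**Figure D3:**
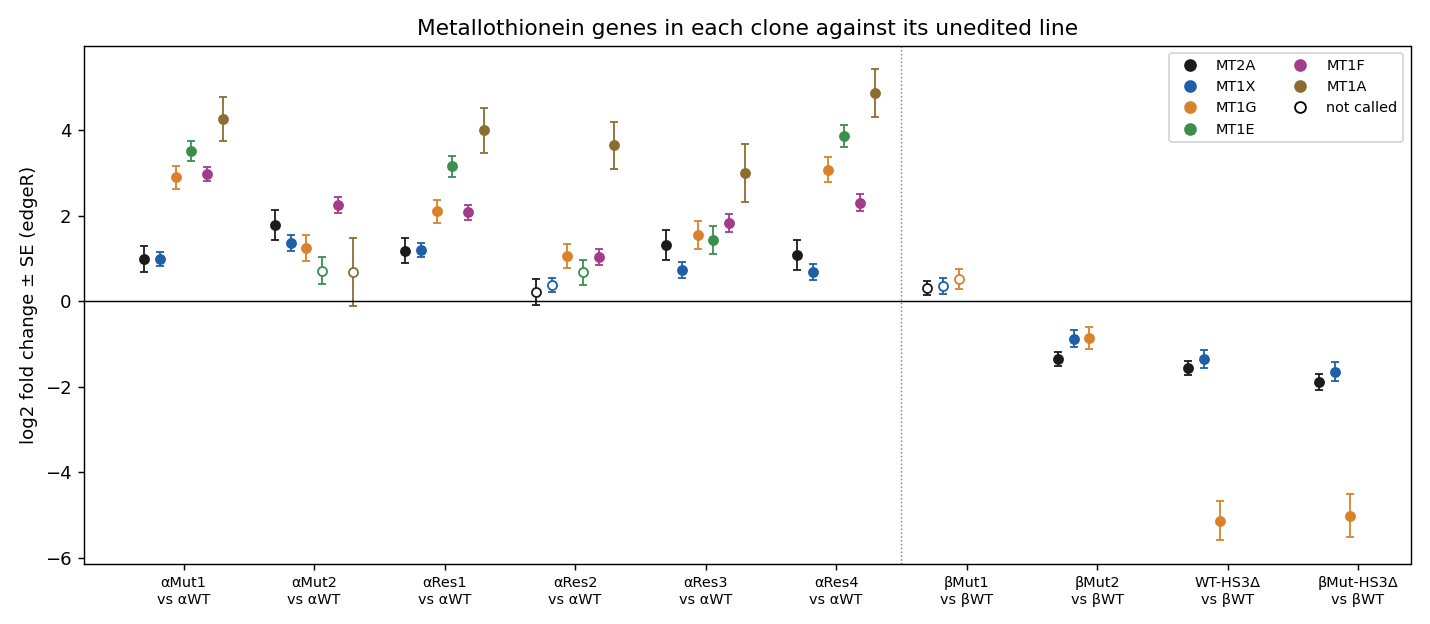
Log2 fold change of each tested member (vertical axis, edgeR, bars ± SE) for each edited line relative to αWT or βWT. Filled points passed both thresholds and open points did not. In the α series all 36 values lie above 0, and in the β series those of βMut2 and of both HS3-deleted lines lie below 0.

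Counted over the 6 members tested, 6 were higher in αMut1 than in αWT, with 22.8% of all 18247 genes tested called in either direction and 15.4% called higher. The count was 4 of 6 in αMut2 (16.1% of all genes called, 6.62% higher), 6 in αRes1 (20.4% called, 13.0% higher) and 3 in αRes2 (18.7% called, 12.0% higher). It was 6 in αRes3 (39.0% called, 20.1% higher) and 6 in αRes4 (40.5% called, 23.3% higher). No tested member was called lower in any of these 6 comparisons. The filter took the mean over all α libraries. MT1E, MT1F and MT1A, with at most 9, 12 and 3 reads in any αWT library, passed it through lines with more reads. Their calls as higher were partly set in advance by that. With only the compared libraries filtered and fitted, the members tested were 6, 4, 6, 3, 4 and 6 in the same order. Those higher were 5, 4, 6, 1, 4 and 5, beside 22.0%, 15.6%, 17.4%, 17.9%, 39.2% and 41.8% of all genes called. The median log2 difference of the members was 2.94 in αMut1, 1.31 in αMut2, 2.10 in αRes1, 0.86 in αRes2, 1.49 in αRes3 and 2.70 in αRes4, against medians of all genes between -0.04 and 0.01. Within replicates 1 to 4 the counts higher were 5, 4, 5, 2, 5 and 4 in the same order, with MT2A lower in αRes2, beside 33.6%, 13.7%, 16.4%, 26.9%, 47.5% and 53.0% of all genes called. With αWT represented by its replicates 5 to 8 alone, an alternative chosen after seeing the data, αMut2 had 4 (28.7% of all genes called), αRes3 6 (37.4%) and αRes4 6 (31.6%).

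**Figure D4:**
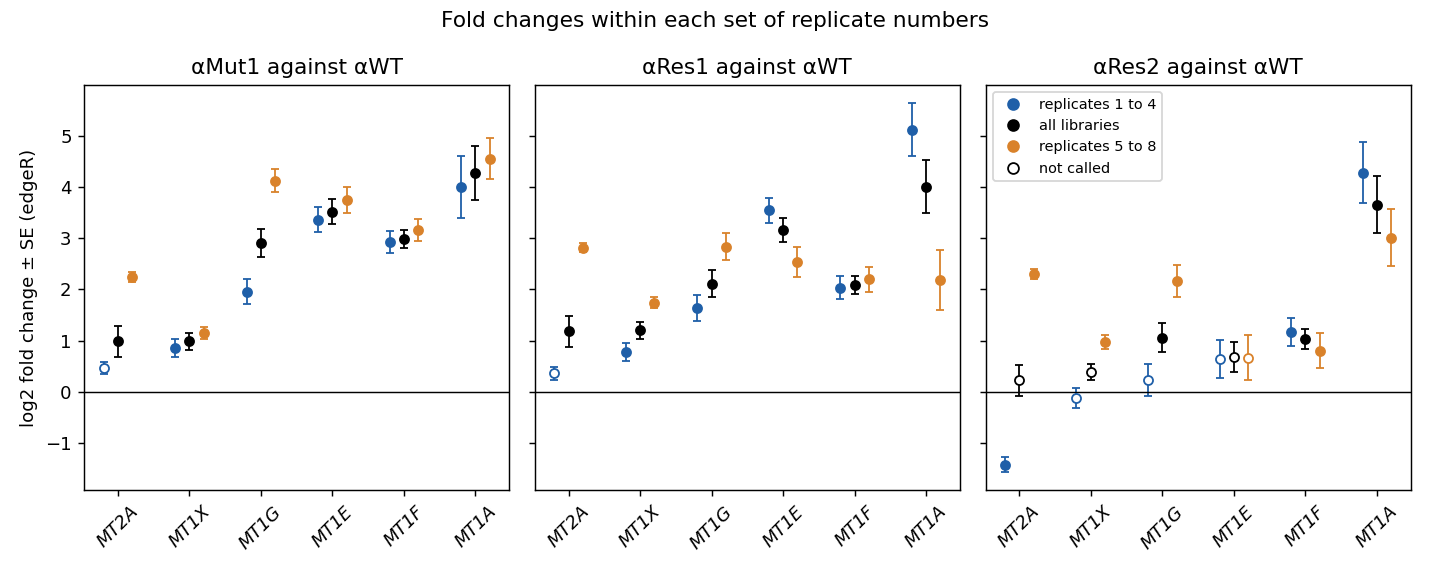
Log2 fold change against αWT (vertical axis, edgeR, bars ± SE) of the 6 tested members in αMut1, αRes1 and αRes2, for replicates 1 to 4, all libraries and replicates 5 to 8. Open points did not pass the thresholds. MT2A differs most between the sets in αRes2, from -1.41 to 2.31, while MT1F lies within 0.81 to 3.16 in all 3 clones.

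The 2 sets of replicate numbers differed within lines as well, and their origin is not given in the sources used here. In αWT, 3 of 6 members (MT2A, MT1X by 0.82 ± 0.17 and MT1G by 1.27 ± 0.33 on the log2 scale) were lower in replicates 5 to 8, with 25.6% of all genes called. In αMut1, MT1A (1.35 ± 0.32) and MT1G (0.91 ± 0.20) were higher in the later numbers (29.1% of genes called). MT1A and MT1E were lower there in αRes1, where MT1A fell by 2.17 and MT1E by 1.16 (38.2% called), and MT2A was higher in αRes2 by 1.48 ± 0.14 (15.2% called). The change between sets in αMut1 minus that in αWT was 2.18 ± 0.39 for MT1G (adjusted p = 1.14e-05) and 1.78 ± 0.18 for MT2A (adjusted p = 5.56e-11), and 2 of 6 members were called against 29.3% of all genes. For αRes1 and αRes2 the sets also differ in the inferred alignment reference, and set and reference cannot be told apart.

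The αRes clones were next compared with αMut1, from which they were derived, to see how the family stood once a different G4 was present. Over all libraries, none of the 6 tested members was called higher in an αRes clone. In αRes1, MT1F fell by 0.89 ± 0.16 and MT1G by 0.79 ± 0.24 on the log2 scale (2 of 6, with 2.96% of all genes called). The call for MT1G (adjusted p = 0.0456) was lost under several alternatives given in the closing section. In replicates 1 to 4 of αRes1 alone, MT1A was higher (1.11 ± 0.31) and MT1F lower (29.5% of all genes called). Within replicates 5 to 8, all 6 members were called in αRes1, with MT2A (0.58 ± 0.09) and MT1X (0.59 ± 0.11) higher and MT1A, MT1E, MT1F and MT1G lower (22.0% called). In αRes2, MT1E fell by 2.83 ± 0.25, MT1F by 1.95 ± 0.18, MT1G by 1.84 ± 0.27 and MT1X by 0.60 ± 0.17 (4 of 6, 8.96% called). In αRes3, MT1E fell by 2.08 ± 0.30, MT1G by 1.36 ± 0.32 and MT1F by 1.16 ± 0.20 (3 of 6, 20.6% called). In αRes4, MT1F alone fell, by 0.67 ± 0.19 (1 of 6, 32.5% called). Within replicates 1 to 4, MT1A (1.34 ± 0.32) and MT1G (0.62 ± 0.21) were higher and MT1X (-0.51 ± 0.18) lower in αRes4 than in αMut1 as well (39.8% of all genes called). MT1F was lower than in αMut1 in all 4 αRes clones, and its αMut1 libraries, 1.80 to 2.63 CPM, did not overlap those of any other line. These 4 comparisons share the αMut1 libraries. Line and inferred alignment reference cannot be told apart for αRes3 and αRes4, or for αRes1 and αRes2 within replicates 5 to 8.

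In the β series the 3 tested members were lower than in βWT in βMut2 and in both lines without HS3, and none was called in βMut1. A fit with replicate number as a block called 1 of the 3 in βMut1, MT1G as higher (21.7% of all genes called). MT1E, below the read filter in the β series, was called higher in βMut1 (0.95 ± 0.30) when the filter was applied to the 8 compared libraries alone. It passed that filter through βMut1 (13, 17, 18 and 18 reads, against 3, 10, 11 and 11 in βWT). That call was thus partly set in advance. MT2A stood at 19.6, 20.5, 25.1 and 21.6 CPM in βWT and at 23, 27.5, 26.6 and 28.9 in βMut1. In βMut2 it stood at 5.93, 10.2, 11.6 and 6.34 CPM, in WT-HS3Δ at 7.28, 6.75, 8.05 and 6.25 and in βMut-HS3Δ at 6.19, 5.30 and 6.04. All libraries of those 3 lines lay below all of βWT, while βMut1 and βWT overlapped. MT2A fell by 1.35 ± 0.16 in βMut2 (adjusted p = 2.39e-06), by 1.56 ± 0.16 in WT-HS3Δ (adjusted p = 8.51e-08) and by 1.88 ± 0.19 in βMut-HS3Δ on the log2 scale. The difference in βMut1 was 0.31 ± 0.16 (adjusted p = 0.106).

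MT1X was more abundant in βWT than in αWT, with 9.29, 11.4, 11.6 and 10.8 CPM in βWT. It stood at 8.89, 15.9, 15.1 and 14.6 CPM in βMut1, at 3.63, 7.46, 7.39 and 5.06 in βMut2, at 4.19, 4.57, 4.19 and 3.35 in WT-HS3Δ and at 3.27, 3.53 and 3.49 in βMut-HS3Δ. MT1X fell by 0.88 ± 0.20 in βMut2, 1.35 ± 0.20 in WT-HS3Δ and 1.64 ± 0.23 in βMut-HS3Δ (log2), and the difference in βMut1 was 0.37 ± 0.19.

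MT1G was the tested member most reduced in the HS3-deleted lines. Its values were 1.30, 1.72, 2.02 and 1.03 CPM in βWT, 1.62, 2.39, 2.28 and 2.30 in βMut1 and 0.646, 0.90, 1.24 and 0.623 in βMut2. In WT-HS3Δ it had 3, 0, 0 and 2 reads and in βMut-HS3Δ 1, 1 and 2, against 33, 52, 60 and 27 in βWT. The fitted log2 changes of MT1G were -5.14 ± 0.46 in WT-HS3Δ and -5.02 ± 0.50 in βMut-HS3Δ, and they rest on 5 and 4 reads. These SE were derived from the test statistic. Compared directly, the same lines gave 0.12 ± 1.01, so the SE at so few reads are not reliable. In βMut2 MT1G fell by 0.86 ± 0.26, and in βMut1 the difference was 0.52 ± 0.23 (adjusted p = 0.0786). MT1H had no read in the 7 HS3-deleted libraries and 8 reads in the 4 of βWT, each at or under 3 counts, so no fold is given. MT1E had 35 reads in βWT, 66 in βMut1, 24 in βMut2, 6 in WT-HS3Δ and 9 in βMut-HS3Δ, and MT1F had 32, 36, 22, 11 and 13. MT1A had 4 reads in βWT, 1 each in βMut1 and βMut2, 14 in WT-HS3Δ and 7 in βMut-HS3Δ.

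Of the 3 members tested, none was called in βMut1 (20.3% of 17535 genes called) and all 3 were lower in βMut2 (28.7% called, 13.7% lower), WT-HS3Δ (50.2% called, 27.5% lower) and βMut-HS3Δ (48.1% called, 26.1% lower). These 4 comparisons share the βWT libraries. No member passed in βMut-HS3Δ against WT-HS3Δ (16.3% of genes called), where the differences were -0.32 ± 0.19 for MT2A, -0.29 ± 0.23 for MT1X and 0.12 ± 1.01 for MT1G. The test of whether G4 mutation and HS3 deletion combine other than additively called none of the 3 (12.1% of genes called), with -0.63 ± 0.24 for MT2A (adjusted p = 0.0837), -0.66 ± 0.30 for MT1X and -0.40 ± 1.17 for MT1G.

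The unedited lines of the 2 series differed from each other. MT1G was lower in αWT than in βWT by 2.00 ± 0.34 and MT1X by 1.88 ± 0.20 on the log2 scale (2 of 3 members, with 48.1% of 18196 genes called). The difference for MT2A was -0.66 ± 0.47 (adjusted p = 0.234), and with αWT replicates 1 to 4 alone it was 0.066 ± 0.0865. Series and line cannot be told apart here. MT1X took 10.9% to 20.4% of the family's reads on average in the α lines and 31% to 37.5% in the β lines.

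In the order of line means, MT2A ran from αMut2 (47.6 CPM) through αRes3, αRes1, αRes4, αMut1, βMut1, βWT, αRes2, αWT, βMut2 and WT-HS3Δ to βMut-HS3Δ (5.84 CPM), and the ranges of neighbours in that order were apart in 1 pair, the last. For MT1X the order ran from βMut1 (13.6 ± 3.2 CPM, n = 4) and βWT to βMut-HS3Δ and αWT (2.92 ± 0.962, n = 8), with every pair of neighbours overlapping. For MT1G it ran from αRes4 (3.21 ± 0.453, n = 4) and αMut1 to WT-HS3Δ (0.0375 ± 0.0441, n = 4), apart between αWT and βMut-HS3Δ. For MT1F, αMut1 stood apart from αRes4, and βMut-HS3Δ from WT-HS3Δ. MT1E was apart between αRes1 (1.70 CPM) and βMut1 (0.609), and MT1H between αRes4 and βMut1.

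The level of MTF1, the zinc sensor that drives the family, was read beside it. In no comparison of an α clone with αWT did MTF1 pass the thresholds, its differences lying between -0.37 ± 0.06 (αMut1, within the fold limit) and -0.01 ± 0.07 (αMut2). It rose in WT-HS3Δ by 0.92 ± 0.10 and in βMut-HS3Δ by 0.58 ± 0.11, where the tested metallothioneins were lower. It did not pass in βMut2 (-0.21 ± 0.10), where they were lower as well, or in βMut1 (-0.49 ± 0.10, within the fold limit). SLC30A1, the zinc exporter of the cell membrane and another MTF1 target, did not pass in the 6 α clones (-0.28 to 0.04) and rose in WT-HS3Δ by 0.88 ± 0.08 and in βMut-HS3Δ by 0.99 ± 0.09.

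Of 21 tested genes of zinc sensing and transport, 4 were higher and 1 lower in αMut1, 1 and 1 in αMut2, 5 and 1 in αRes1, 2 and 2 in αRes2, 4 and 5 in αRes3 and 5 and 6 in αRes4. In the β series the counts were 3 and 1 in βMut1, 1 and 3 in βMut2, 5 and 6 in WT-HS3Δ and 6 and 3 in βMut-HS3Δ. The share of the list called was 23.8% in αMut1, 9.52% in αMut2, 28.6% in αRes1, 19.0% in αRes2, 42.9% in αRes3 and 52.4% in αRes4, beside 22.8%, 16.1%, 20.4%, 18.7%, 39.0% and 40.5% of all genes. In the β series it was 19.0% in βMut1, 19.0% in βMut2, 52.4% in WT-HS3Δ and 42.9% in βMut-HS3Δ, beside 20.3%, 28.7%, 50.2% and 48.1%. SLC30A4, a transporter that moves zinc into vesicles, rose in αMut1 (1.66 ± 0.20), αRes1 (1.54 ± 0.19), αRes2 (1.29 ± 0.20), αRes3 (2.20 ± 0.22) and αRes4 (1.85 ± 0.22), and stood at -0.05 ± 0.24 in αMut2. It fell in βMut2 by 1.70 ± 0.13 and in WT-HS3Δ by 0.99 ± 0.12. SLC30A8, the zinc transporter of insulin granules, rose in αMut1 (2.84 ± 0.48) and αRes1 (2.49 ± 0.47), and fell in αRes4 by 3.00 ± 0.88, in βMut1 by 0.63 ± 0.21, in WT-HS3Δ by 4.61 ± 0.35 and in βMut-HS3Δ by 3.80 ± 0.35. SLC30A3, which loads zinc into synaptic vesicles, rose in αMut1, αRes1, αRes3 and αRes4 (1.20 to 1.74) and fell in βMut2 by 0.86 ± 0.14 and in WT-HS3Δ by 1.37 ± 0.15. SLC30A10, a manganese exporter, rose in αRes2, αRes3, αRes4 and βMut1 and fell in αMut2 by 1.26 ± 0.30 and in WT-HS3Δ by 1.12 ± 0.08.

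Genes of other stimuli known to act on the family were counted from lists. Of 9 tested genes of the glucocorticoid receptor and its targets, 4 were higher and 1 lower in αMut1 and none was called in αMut2. In αRes1 4 were higher, in αRes2 2 were higher, in αRes3 2 were higher and 2 lower, and in αRes4 4 were higher and 2 lower. In the β series, with 8 tested, 2 were higher and 3 lower in βMut1, 3 lower in βMut2, 1 higher and 3 lower in WT-HS3Δ and 2 lower in βMut-HS3Δ. The share of the list called was 55.6% in αMut1, 0% in αMut2, 44.4% in αRes1, 22.2% in αRes2, 44.4% in αRes3 and 66.7% in αRes4, beside the shares of all genes given above. In the β series it was 62.5% in βMut1, 37.5% in βMut2, 50.0% in WT-HS3Δ and 25.0% in βMut-HS3Δ. TSC22D3, a glucocorticoid-induced leucine zipper protein, rose in αMut1 (1.70 ± 0.40), αRes1 (1.95 ± 0.40) and βMut1 (0.84 ± 0.09). It fell by 1.44 ± 0.58 in αRes3 and fell by 1.43 ± 0.10 in βMut2. It fell by 5.36 ± 0.14 in WT-HS3Δ and fell by 5.11 ± 0.16 in βMut-HS3Δ. SGK1, a kinase induced by glucocorticoids, rose in αMut1 (2.21 ± 0.38) and all 4 αRes clones (0.97 to 2.24) and in βMut1 (0.82 ± 0.08), fell in WT-HS3Δ by 0.64 ± 0.08 and stood at 0.49 ± 0.44 in αMut2. Whether hormone in the serum played a part was not tested.

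Of 15 tested heat shock genes, 13 were higher in WT-HS3Δ, 12 in βMut-HS3Δ and 6 in βMut2, with none lower there. In βMut1 1 was lower, and in the α clones none was higher, with 1 lower in αRes2, 1 in αRes3 and 2 in αRes4. The share of the list called was 86.7% in WT-HS3Δ, 80.0% in βMut-HS3Δ and 40% in βMut2, against 50.2%, 48.1% and 28.7% of all genes. It was 6.67% in βMut1, against 20.3%, and 0% to 13.3% in the α clones, against 16.1% to 40.5%. HSPH1, a chaperone of the HSP110 family, rose by 2.06 ± 0.08 in WT-HS3Δ, 1.98 ± 0.09 in βMut-HS3Δ and 0.86 ± 0.08 in βMut2. Of 15 tested NRF2 targets, genes of the oxidative stress response, at most 4 were higher and at most 4 lower in any clone, and the share called ran from 0% in αMut2 to 53.3% in WT-HS3Δ, where 16.1% and 50.2% of all genes were called. Among them SLC7A11, the cystine transporter, fell by 2.92 ± 0.08 in WT-HS3Δ, 3.14 ± 0.09 in βMut-HS3Δ and 0.55 ± 0.08 in βMut2, and rose in αMut1 (0.63 ± 0.16) and αRes3 (1.08 ± 0.18). NQO1, a quinone reductase, rose in βMut2 (0.76 ± 0.10), WT-HS3Δ (1.04 ± 0.10) and βMut-HS3Δ (0.51 ± 0.10) and fell in the 4 αRes clones by 0.73 to 1.09. Of 12 tested copper genes, none was called in αMut1, αRes1 or αRes2, 1 was lower in αMut2, 3 were higher and 1 lower in αRes3, and 1 was higher in αRes4. In βMut1 1 was higher and 2 lower, in βMut2 7 and 2, in WT-HS3Δ 3 and 1 and in βMut-HS3Δ 6 and 1. The share called was 75.0% in βMut2, against 28.7% of all genes, 58.3% in βMut-HS3Δ, against 48.1%, and 33.3% in WT-HS3Δ, against 50.2%. It was 25.0% in βMut1, against 20.3%, and 0% to 33.3% in the α clones, against 16.1% to 40.5%. SLC31A1, the copper importer, fell by 1.36 ± 0.10 in WT-HS3Δ, 1.04 ± 0.11 in βMut-HS3Δ and 0.65 ± 0.09 in αRes3. Of the 10 erythroid marker genes, which include the γ-globin genes of the β-globin cluster, 4 were higher in αMut1, 2 lower in αMut2 and 3, 5, 7 and 6 higher in αRes1 to αRes4. In the β series 3 were higher and 1 lower in βMut1, 1 higher in βMut2, 4 higher and 3 lower in WT-HS3Δ and 7 higher and 2 lower in βMut-HS3Δ. The share called was 40%, 20%, 30%, 50%, 70% and 60% in the α clones in the order given. Of all genes 22.8%, 16.1%, 20.4%, 18.7%, 39.0% and 40.5% were called there. In the β lines it was 40%, 10%, 70% and 90%, beside 20.3%, 28.7%, 50.2% and 48.1% of all genes. Among 7 tested markers of other cell types 3 were higher and 1 lower in αMut1, 2 and 1 in αMut2, 1 and 3 in αRes1, 1 and 1 in αRes2, 1 and 4 in αRes3 and 2 and 2 in αRes4. Of 6 tested in the β series the counts were 1 and 2 in βMut1, 2 and 0 in βMut2, 3 and 3 in WT-HS3Δ and 2 and 3 in βMut-HS3Δ. The share called was 57.1%, 42.9%, 57.1%, 28.6%, 71.4% and 57.1% in the α clones. It was 50.0%, 33.3%, 100% and 83.3% in the β lines, beside the same shares of all genes. Between replicate sets all 7 were called in αMut1 (2 higher and 5 lower in the later numbers) and in αRes1 (5 higher and 2 lower), 3 in αWT (1 higher and 2 lower) and 3 in αRes2 (3 lower). Of all genes, 29.1%, 38.2%, 25.6% and 15.2% were called in these comparisons. MS4A1, the B-cell marker CD20, was at or near 0 in each line. It does not stand for the list, since at most 1 of the 10 markers of other cell types had no reads in a given line. Whether these shifts bear on the metallothioneins was not tested.

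Of 3 tested genes and pseudogenes of the wider family outside the 8 members, 3 were higher in αMut1, 2 each in αMut2, αRes1 and αRes3 and 1 each in αRes2 and αRes4. Of 2 tested in the β series, 1 was higher in βMut1, 1 lower in βMut2 and 2 lower in each HS3-deleted line. The shares of all genes called are those given above. MT2P1 is a copy of MT2A on chromosome 4. MT2P1 rose in αMut1 (0.81 ± 0.31), αMut2 (1.79 ± 0.35), αRes1 (0.99 ± 0.30) and αRes3 (0.97 ± 0.36) and fell by 0.89 ± 0.17 in βMut2, 1.00 ± 0.17 in WT-HS3Δ and 1.35 ± 0.19 in βMut-HS3Δ. In αWT its level was 3.30 to 5.39 CPM in replicates 1 to 4 and 0.798 to 1.03 in replicates 5 to 8, apart in the same direction as MT2A. MT1XP1, a copy of MT1X, rose in αMut1 (0.72 ± 0.24), αMut2 (1.26 ± 0.27), αRes1 (0.96 ± 0.23) and βMut1 (0.63 ± 0.21), and fell by 1.04 ± 0.23 in WT-HS3Δ and 1.28 ± 0.26 in βMut-HS3Δ. Reads of a gene and its copy could have been exchanged in counting, and this was not tested.

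The nearest protein-coding genes outside the family on either side of the cluster were read for comparison. BBS2, a subunit of the ciliary BBSome complex, ends 25917 bases before it and NUP93, a nuclear pore protein, starts 45922 bases after it. BBS2 rose in αRes3 (0.63 ± 0.13) and αRes4 (0.79 ± 0.13) and fell by 0.87 ± 0.09 in βMut2, 1.17 ± 0.09 in WT-HS3Δ and 1.76 ± 0.10 in βMut-HS3Δ. It did not pass in αMut1 (0.34 ± 0.11) or αMut2 (-0.09 ± 0.14). NUP93 rose in WT-HS3Δ (0.85 ± 0.09) and fell by 0.55 ± 0.15 in αRes4 and 0.55 ± 0.09 in βMut1.

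The mean log2 level of MT2A, MT1X and MT1G, the members with at least 10 reads on average in both series, was compared with 16988 other genes over the 62 libraries. The 5 genes with the most similar pattern were UBE2L6 (Pearson r = 0.836), COL6A2 (0.834), MT2P1 (0.827), GRB7 (0.806) and KLF10 (0.801). Within the 43 α libraries their r ran from 0.67 to 0.843, and within the 19 β libraries from 0.84 to 0.951. These values describe libraries that share lines, replicate sets and depth, and rest on 12 lines. Among the members, MT2A and MT1X had r = 0.86 in the α libraries and 0.969 in the β libraries, and MT2A and MT1G 0.563 and 0.902. MT2A and MT1E had 0.385 in the α libraries and 0.87 in the β libraries. MT2A and MT1A had 0.135 and -0.393, and MT1G and MT1A 0.664 and -0.619, where MT1A had at most 8 reads in any β library.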

How the data were processed

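Polyadenylated RNA of K562 lines was sequenced in 62 libraries as 51-base read pairs. The authors trimmed reads with cutadapt, aligned them to hg38 with BWA, removed duplicates and deposited raw read counts per gene from featureCounts with GENCODE 42 annotation. The strand setting and the handling of reads with several alignments are not given in the sources used here. Both bear on metallothioneins that share sequence. The deposited counts were fitted with edgeR 4.0.16 (R 4.3.3; quasi-likelihood test, TMM scaling, Benjamini-Hochberg adjustment over all genes tested), with 1 fit for the 43 α libraries, 1 for the 19 β libraries, 1 for αWT against βWT and 1 with replicate sets as groups. Genes with a mean under 10 reads were left out, and calls needed an adjusted p under 0.05 and a log2 difference beyond 0.5. The SE of a log2 difference is its absolute size divided by the square root of the F statistic of its test. It is derived from the test and is not reliable where a group has few reads. Levels are CPM scaled by TMM over all 62 libraries. Fits were tested on simulated data. Libraries were grouped by line. No libraries were identical, and within a line the chi-square per degree of freedom between libraries was 1.80 to 88.3. Intervals and floors cover counting error only. Named genes were the 8 members, MTF1, SLC30A1, the flanking genes, at most 4 genes per list called in the most comparisons with an unedited line and the 5 genes most like the family. Members, lists and the split of replicate numbers at 4 were chosen with earlier results of these data known. Alternatives were DESeq2 scaling and test, no filter, a replicate block, fits of the compared libraries alone, replicate sets and leaving out each library. CUT&Tag and 4C libraries were not used here.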

Additional observations from a re-analysis of the deposited data

Results flagged for a closer look

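Within lines of 4 to 8 libraries, 78 groups of values were examined for a library far from the others, and 9 stood out, where chance gives about 1 in 20. In αRes2 replicate 3, the shallowest library, MT1A was 1.66 CPM (7 reads, others 0.274 to 0.923), MT1F 1.42 CPM (6 reads, others 0.381 to 0.668) and MT1E 0.711 CPM (3 reads, others 0.152 to 0.394). Single reads set apart MT1M in αRes2 replicate 7 (0.0788 CPM), MT1A in βMut1 replicate 4 (0.0334 CPM) and MT1A in βMut2 replicate 2 (0.0321 CPM). MT1H was high in αWT replicate 1 at 0.272 CPM (9 reads, others up to 0.0934). MT1F was low in βWT replicate 2 at 0.166 CPM (5 reads, others 0.316 to 0.343), and MT1G was low in βMut1 replicate 1 at 1.62 CPM (40 reads, others 2.28 to 2.39).

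The difference between αMut1 and αWT itself differed between replicate sets, by 2.18 ± 0.39 for MT1G and 1.78 ± 0.18 for MT2A on the log2 scale in edgeR's quasi-likelihood test of the interaction. The cause was not tested.

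MT4, a metallothionein of squamous epithelia that is not among the 8 members, stood at a mean of 7.91 CPM in αRes3 (7.15 to 8.87) and 11.3 CPM in αRes4 (7.74 to 14.1). In αWT it was at most 0.149 CPM in any library, and in αMut1 its mean was 0.341 CPM. Other libraries with the alignment reference inferred for αRes3 and αRes4 had low values, with 0 reads in αRes1 replicates 5 to 8 and 0.152 to 0.732 CPM in αRes2 replicates 5 to 8.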

How the results depend on the processing

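Counts of called members moved in the following cases. For αRes2 against αWT (3, with 18.7% of all genes called) the count was 1 with only the compared libraries fitted, where 3 members were tested (17.9% called). It was 5 within replicates 5 to 8 (26.6% called) and 3 to 5 on leaving out each library, with 5 without αWT replicate 1. For αRes1 against αMut1 (2) it was 1 with the replicate block (3.59% of all genes called) and 1 with only the compared libraries (1.39%). Within replicates 5 to 8 it was 6 (2 higher and 4 lower, with 22.0% of all genes called against 2.96%), and on leaving out each library 1 to 2. It was 4 within replicates 1 to 4 for αRes4 against αMut1 (1), with 39.8% of all genes called against 32.5%. For βMut1 against βWT (0) it was 1 with no filter (11.6% of all genes called), 1 with the replicate block (21.7%) and 1 with only the compared libraries (19.5%). On leaving out each library it was 0 to 1, with 1 without βMut1 replicate 1 or βWT replicate 3. With no filter, 7 members were tested, and 6 were called in WT-HS3Δ (29.7% of all genes called) and 5 in βMut-HS3Δ (28.1%). The main fit called 3 in each, with 50.2% and 48.1% of all genes. Between the αMut1 sets (2) it was 4 with only those libraries (29.9% of all genes called) and 2 to 4 on leaving out each library, with 4 without αMut1 replicate 7.

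Directions reversed as follows, on the log2 scale. Within replicates 1 to 4, αRes2 against αWT gave -1.41 for MT2A and -0.12 for MT1X, αRes1 against αMut1 gave -0.11 for MT2A, 0.18 for MT1E, 1.11 for MT1A and -0.0788 for MT1X, αRes2 against αMut1 gave 0.28 for MT1A, αRes4 against αMut1 gave -0.11 for MT2A and αWT against βWT gave 0.066 for MT2A. Within replicates 5 to 8, αRes2 against αMut1 gave 0.0659 for MT2A. With the control line by replicates 5 to 8 alone, chosen after seeing the data, αRes3 against αMut1 gave 0.0329 for MT1X, and αRes4 against αMut1 gave -0.0164 for MT1A and -0.27 for MT1G. On leaving out each library the ranges were -0.37 to 0.14 (MT1E, αRes2 sets), -0.28 to 0.0819 (MT1E, αWT sets), -0.0369 to 0.17 (MT1F, αRes1 sets), -0.27 to 0.20 (MT1F, αWT sets), -0.21 to 0.0588 (MT1G, αRes1 sets) and -0.28 to 0.88 (MT1G, βMut-HS3Δ against WT-HS3Δ). The causes were not tested.

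Shared replicate numbers were not taken as pairs, since correlations of same-numbered libraries did not all exceed 0.1 (43 of 105 pairs in the α series and 26 of 36 in the β series did). They ran from -0.444 to 0.296 in the α series and from -0.121 to 0.760 in the β series, where 5 of 43 and 12 of 19 libraries correlated best with their own number, a hint of shared handling in the β series (median 0.238, against -0.0777 for other numbers). With the replicate block, MT2A turned to -0.0125 in αRes4 against αMut1 and to 0.0624 in αWT against βWT, MT1G lost its call in αRes1 against αMut1 and gained one in βMut1 (0.53), and no other call of a member changed. The MT1G call in αRes1 against αMut1 was lost in 12 of 15 fits without 1 library. Members under 10 reads on average limit what depth can show.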
